A study of Mus musculus with 2 samples.

Results

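Matricellular proteins are secreted into the extracellular matrix, where they act on cells rather than bear load. The 10 genes described here are the thrombospondins *Thbs1* and *Thbs2*, tenascin C (*Tnc*), periostin (*Postn*), *Sparc*, and 5 genes of the CCN family under their older symbols, *Cyr61* (CCN1), *Ctgf* (CCN2), *Nov* (CCN3), *Wisp1* (CCN4) and *Wisp2* (CCN5). They were chosen by symbol from the 31053 genes of the count tables, and all 10 were found. Their expression was measured by scRNA-seq in primary aortic vascular smooth muscle cells (VSMCs) of wild-type mice on day 5 of culture. There were 2 libraries, biological replicates 1 and 2, of this 1 condition, with no treatment and no deleted gene. The mice had a C57BL6/N background, and the cells were grown in full medium with serum and detached with trypsin before capture. Per the study's methods a cell preparation pooled several aortae on average, and the age of the mice used for scRNA-seq was not given in the sources used here. Cells were grouped into classes in each library, and each mean and standard deviation (SD) is over these libraries (n = 2). Standard errors come from 1 fit of the sums of all classes in both libraries. Intervals of a share of cells are over the cells of 1 library.

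Matricellular genes are usually active where tissue is being built or repaired, and many are low in the quiescent artery. The thrombospondins bind CD47 and CD36, and thrombospondin 1 can activate latent TGF-β. Tenascin C and periostin are ligands of integrins, and SPARC is a collagen-binding glycoprotein. The CCN proteins bind integrins and heparan sulphate, and *Cyr61* and *Ctgf* are textbook targets of YAP and TEAD as well as of serum and TGF-β. WISP2 lacks the C-terminal domain of the other CCN proteins and is best known in VSMCs as an inhibitor of growth.

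The classes were set by a few genes that are no members of the group. Barcodes counted as cells if they held 300 or more genes, 3000 or more unique molecular identifiers (UMIs, 1 per captured mRNA molecule) and less than 20% mitochondrial UMIs. Endothelial cells (ECs) had at least 2 UMIs in at least 2 of the 4 genes *Pecam1*, *Cdh5*, *Cldn5* and *Gja4*. Cycling cells had at least 2 UMIs in at least 3 of 8 proliferation genes. The other cells were split by *Myh11*, the myosin heavy chain of contractile smooth muscle, into Myh11-high (at least 5 UMIs), Myh11-intermediate (2 to 4) and Myh11-low cells (at most 1). Non-cycling Myh11-low cells with a UMI of *Fgf18* were kept apart as Fgf18-positive cells. The class called Myh11-low, cycling or not, thus held no *Fgf18* UMI, whereas Myh11-high cells were not split by *Fgf18*. Myh11-high cells numbered 299 in replicate 1 and 531 in replicate 2, Myh11-low cells 1374 and 3086, Fgf18-positive cells 1204 and 818, and ECs 102 and 141. The cycling classes held 174 and 348 Myh11-high cells, and 831 and 1189 Myh11-low cells.

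The libraries held 127949633 and 132561822 UMIs, and the 4866 and 6824 cells had a median of 22234.5 and 16310 UMIs. Only 9 cell barcodes occurred in both libraries, where chance gives 4.89. The label as smooth muscle held for the Myh11-high cells, in which *Acta2* and *Tagln* were at 15450 and 7569 CPM in replicate 1 (the gene's UMIs scaled to the same total in every sum). In Myh11-low cells *Acta2* fell by 2.66 on the log2 scale (standard error, SE, of 0.36, adjusted p = 0.00359 from edgeR). There 3 of 6 contractile genes were lower, beside 3.87% of all genes. When the library number was a block, a fit described further on, 6 of 6 were lower, beside 12.9% of all genes. Cells that had lost *Myh11* in culture and cells that never had it cannot be told apart here. Macrophage markers were low in all classes, with 5 genes summing to 3.95 to 12.4 CPM in Myh11-high cells and 36.6 to 58.8 CPM in Myh11-low cells, and *Ptprc* was at 0 in Myh11-high cells. The 4 Schwann cell markers summed to 5.36 to 12.5 CPM and 22.0 to 34.6 CPM, and *Sox10* was at 0 in Myh11-high cells. The 4 adventitial fibroblast markers summed to 54.8 to 109 CPM in Myh11-high cells and to 421 to 433 CPM in Myh11-low cells. This last sum was highest in ECs, at 985 and 1176 CPM, so that it does not mark fibroblasts alone. The part of macrophages, Schwann cells and fibroblasts in the differences below was not tested.

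The start regions of 3 members are shown, because *Tnc* and *Postn* were called lower in Myh11-low cells and *Cyr61* is a standard target of TEAD factors. RefSeq's table of promoters (build GRCm38.p6) had entries for 5 of the 10 members (*Thbs2*, *Tnc*, *Postn*, *Sparc* and *Cyr61*, the last under the symbol Ccn1), and so not for *Ctgf*, the third member called lower. For *Tnc* and *Postn* it held 2 start sites each, and the site nearest to the annotated start of the gene is shown. Each line gives the 250 bases before the first transcribed base on the gene's own strand, from 5′ to 3′. Capitals mark the letters TATAAA and the core of the TEAD motif (CATTCC), where found on either strand.
Tnc, chr4:64047016-64047265, minus strand: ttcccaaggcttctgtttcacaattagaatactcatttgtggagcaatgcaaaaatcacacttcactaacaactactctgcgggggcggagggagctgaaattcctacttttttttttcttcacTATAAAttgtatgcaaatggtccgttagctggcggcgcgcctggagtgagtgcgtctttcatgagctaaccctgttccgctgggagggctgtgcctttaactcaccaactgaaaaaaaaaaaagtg
Postn, chr3:54360857-54361106, plus strand: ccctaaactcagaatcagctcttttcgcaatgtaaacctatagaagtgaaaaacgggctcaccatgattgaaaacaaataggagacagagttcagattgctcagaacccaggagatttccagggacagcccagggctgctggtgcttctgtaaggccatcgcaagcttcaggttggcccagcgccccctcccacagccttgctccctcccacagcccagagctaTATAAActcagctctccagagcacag
Cyr61, chr3:145649986-145650235, minus strand: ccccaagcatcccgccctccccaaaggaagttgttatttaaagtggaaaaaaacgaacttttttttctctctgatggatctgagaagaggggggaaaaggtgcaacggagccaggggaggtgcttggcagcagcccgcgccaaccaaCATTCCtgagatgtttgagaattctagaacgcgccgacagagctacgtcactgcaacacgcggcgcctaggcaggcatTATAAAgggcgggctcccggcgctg
The letters TATAAA lay at position -126 in *Tnc*, -26 in *Postn* and -25 in *Cyr61*, counted from the first transcribed base. In the windows of the start sites not shown they lay at position -205 in *Tnc* and were not found in *Postn* (chr3:54359017-54359266). The TEAD core was found in *Cyr61* at position -103 and not in the windows of *Tnc* and *Postn*. Neither the AP-1 motif TGANTCA nor a CArG box, the motif of serum response factor, was in any of the 3 windows. Of all 32851 windows of this length, 12.4% held TATAAA, 12.6% CATTCC, 6.75% TGANTCA and 1.47% a CArG box, with both strands searched for each motif. A match is a description of the letters and not evidence of binding.

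Expression in Myh11-low and Myh11-high cells was compared to find which members differ between cells without and with the contractile marker. By their definition the classes also differed in *Fgf18*, at 106 and 13.5 CPM in Myh11-high cells and at 0 in Myh11-low cells. Myh11-high cells were also deeper, with a median of 23780 and 18410 UMIs against 17920 and 14130, and levels are scaled to the total UMIs. *Tnc*, *Postn* and *Ctgf* were lower in Myh11-low cells, by 5.27-fold, 2.07-fold and 2.17-fold. None of the 10 members was called higher. The 14 sums of UMIs, 1 for each class of each library, were fitted together with edgeR (quasi-likelihood F test), and p-values were adjusted by Benjamini-Hochberg over 13014 genes. It called 5.66% of all genes, 3.87% as lower and 1.8% as higher in Myh11-low cells, and 3 of the 10 members. The median log2 fold change was -0.40 over the members and 0.02 over all genes. When the cycling and Fgf18-positive cells were kept in the classes, 1 member, *Postn*, was called (125 genes in all). That fit also had fewer classes and so fewer sums than the main one. *Tnc* was then at 179 and 104 CPM in Myh11-high and at 42.0 and 21.5 CPM in Myh11-low cells. *Ctgf* was at 1558 and 1784 CPM against 851 and 1009 CPM. The part of the cells and of the smaller fit in the lost calls was not tested.

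**Figure D1:**
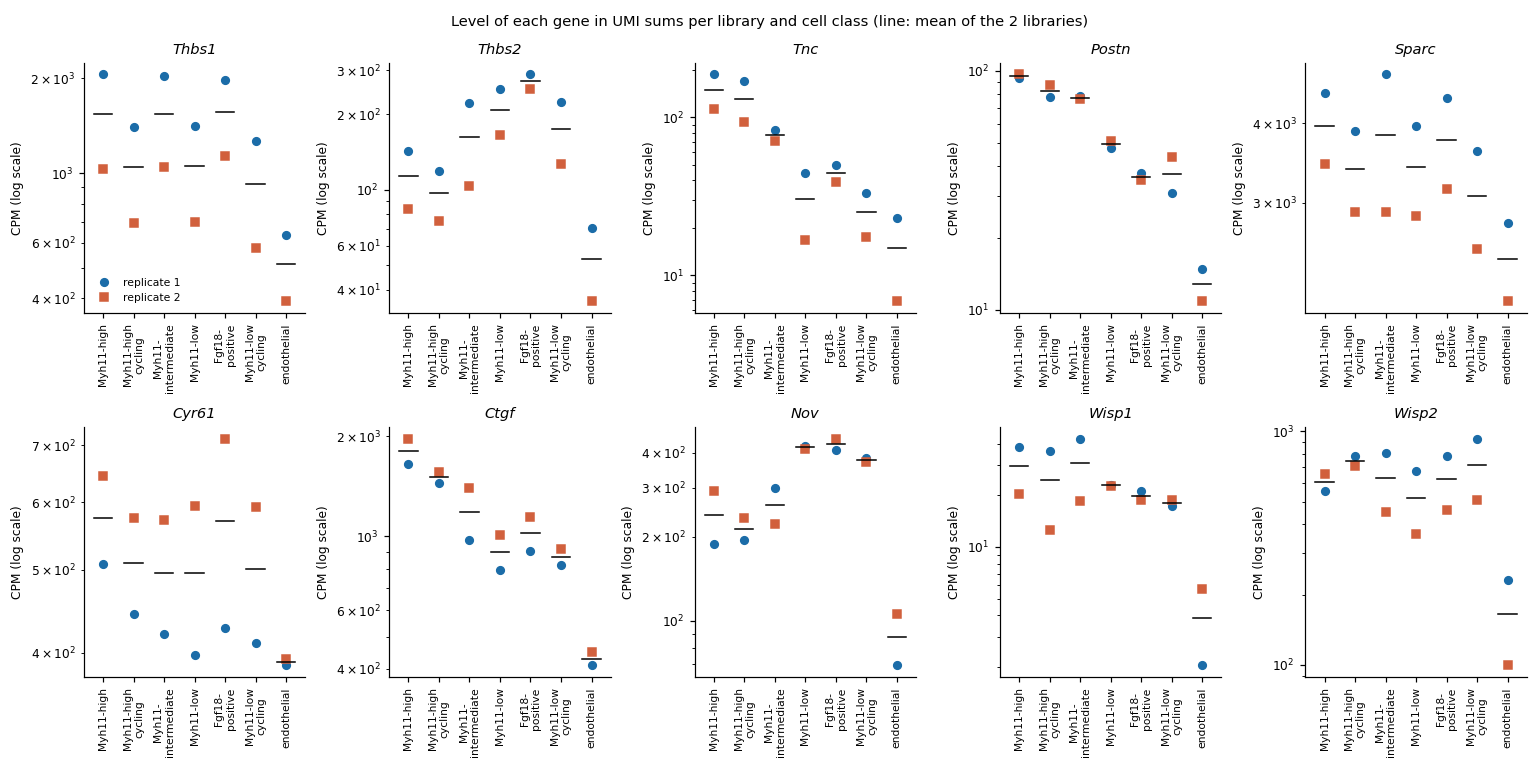
CPM on a log axis (a different range in each panel) for the 10 genes in the UMI sums of 7 cell classes, with blue circles for replicate 1, orange squares for replicate 2 and a line at their mean. *Tnc*, *Postn* and *Ctgf* are highest in the Myh11-high cells, and *Thbs2* and *Nov* are higher in Myh11-low than in Myh11-high cells of both libraries.

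Tenascin C is a large hexameric glycoprotein that is induced in injured arteries. *Tnc* (ENSMUSG00000028364, chromosome 4 of GRCm38 from 63959785 to 64047015, minus strand) was at 187 CPM in replicate 1 and 112 CPM in replicate 2 in Myh11-high cells (150 ± 52.9, SD, n = 2), and at 44.6 and 16.8 CPM in Myh11-low cells (30.7 ± 19.7). The lower of the Myh11-high values lay above both Myh11-low values. The log2 fold change was -2.40 (SE 0.58, adjusted p = 0.0408 from edgeR), and it was -2.06 and -2.71 within replicates 1 and 2. The gene was called under 8 of 10 alternatives, with adjusted p-values from 4.31e-05 to 0.109. The exceptions were cells of at least 10000 UMIs and under 10% mitochondrial UMIs (adjusted p = 0.0529) and classes with cycling and Fgf18-positive cells kept in (adjusted p = 0.109). The gene 8030451A03Rik overlaps *Tnc* on the opposite strand.

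Periostin is a matrix protein of collagen-rich and injured tissue. *Postn* (ENSMUSG00000027750, chromosome 3, 54361109 to 54391037, plus strand) stood at 92.7 and 96.4 CPM in Myh11-high cells and at 47.6 and 50.7 CPM in Myh11-low cells. The 2 libraries were close to each other and the classes did not overlap. The log2 fold change was -1.05 (SE 0.17, adjusted p = 0.00765 from edgeR), with adjusted p-values up to 0.0433 over the 10 alternatives, all of which called it.

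*Ctgf* (ENSMUSG00000019997, chromosome 10, 24595442 to 24598683, plus strand) encodes a CCN protein that acts downstream of TGF-β and of mechanical tension. It was at 1648 and 1967 CPM in Myh11-high cells and at 794 and 1007 CPM in Myh11-low cells, again without overlap. The log2 fold change was -1.11 (SE 0.18, adjusted p = 0.00799 from edgeR), and -1.05 and -0.97 within the libraries. It was called under 9 of 10 alternatives. The gene Gm15270 overlaps *Ctgf* on the opposite strand, and whether the counting kept strands apart was not given in the sources used here. With cycling and Fgf18-positive cells kept in, *Ctgf* was not called (adjusted p = 0.0669).

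*Thbs2* and *Nov* stood the other way round. *Thbs2*, an anti-angiogenic thrombospondin that does not activate TGF-β, was at 143 and 83.9 CPM in Myh11-high cells and at 251 and 165 CPM in Myh11-low cells. *Nov*, a CCN protein known to restrain VSMC growth, was at 189 and 291 CPM in Myh11-high cells and at 424 and 411 CPM in Myh11-low cells. In both genes the 2 Myh11-low values lay above the 2 Myh11-high values. The log2 fold changes of 0.77 (*Thbs2*, SE 0.47, adjusted p = 0.435) and 0.69 (*Nov*, SE 0.24, adjusted p = 0.14) from edgeR did not pass the threshold.

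Sums of 1 library share a culture, and the fit was therefore repeated with the library number as a block. It called 7 of the 10 members, beside 24.7% of all genes (11.8% as higher and 12.9% as lower). The 2 higher members were *Thbs2* (adjusted p = 0.00465) and *Nov* (adjusted p = 0.0275), and the 5 lower ones were *Tnc* (adjusted p = 4.31e-05), *Postn* (adjusted p = 0.000446), *Ctgf* (adjusted p = 1.33e-05), *Thbs1* (adjusted p = 0.000425) and *Sparc* (adjusted p = 0.0111). The block thus added 4 calls. For *Thbs1* and *Sparc* the levels of the libraries stood further apart than those of the classes.

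*Thbs1* was at 2056 and 1031 CPM in Myh11-high cells and at 1410.1 and 701 CPM in Myh11-low cells, so that the classes overlapped while the difference within each library was alike (-0.54 and -0.56 on the log2 scale). *Sparc* was at 4470.4 and 3458 CPM in Myh11-high cells and at 3962 and 2861 CPM in Myh11-low cells. Without the block neither passed, at log2 fold changes of -0.66 (*Thbs1*, SE 0.59, adjusted p = 0.627 from edgeR) and -0.32 (*Sparc*, SE 0.32, adjusted p = 0.667 from edgeR). Fgf18-positive cells, which are not in the Myh11-low class, had *Thbs1* at 1979 and 1134 CPM and *Sparc* at 4393 and 3154 CPM. With cycling and Fgf18-positive cells kept in the classes, *Thbs1* was at 1768 and 878 CPM in Myh11-high cells. In Myh11-low cells it was then at 1597 and 750 CPM. *Sparc* was then at 4214 and 3204.5 CPM against 4011 and 2827.5 CPM.

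*Cyr61*, *Wisp1* and *Wisp2* passed in neither fit. *Cyr61*, an early response gene that promotes adhesion and migration, was at 508 and 644 CPM in Myh11-high cells and at 397 and 595 CPM in Myh11-low cells, with overlapping classes (log2 fold change -0.32, SE 0.28). *Wisp1*, a target of Wnt signalling, was at 38.5 and 20.5 CPM in Myh11-high cells and at 23.0 and 22.8 CPM in Myh11-low cells (-0.47, SE 0.51). *Wisp2* went in opposite directions in the libraries, from 552 to 675 CPM in replicate 1 and from 658 to 362 CPM in replicate 2 (-0.33, SE 0.48). Their adjusted p-values from edgeR were 0.619, 0.705 and 0.8. Without the block, the SEs of *Thbs1*, *Wisp1* and *Wisp2* leave room for changes of the size seen in *Postn* and *Ctgf*. With the block the SE of *Thbs1* was 0.087 at a log2 fold change of -0.66, which leaves no such room. Those of *Wisp1* and *Wisp2* were then 0.34 and 0.27, at -0.40 and -0.45.

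The libraries themselves differed in several members, whatever the class. *Thbs1* in replicate 2 was at 0.458 to 0.616 of its level in replicate 1 over the 7 classes, whereas *Cyr61* in replicate 2 was at 1.02 to 1.67 times its level in replicate 1. With 1 library on each side of this contrast there is no test of it.

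**Figure D2:**
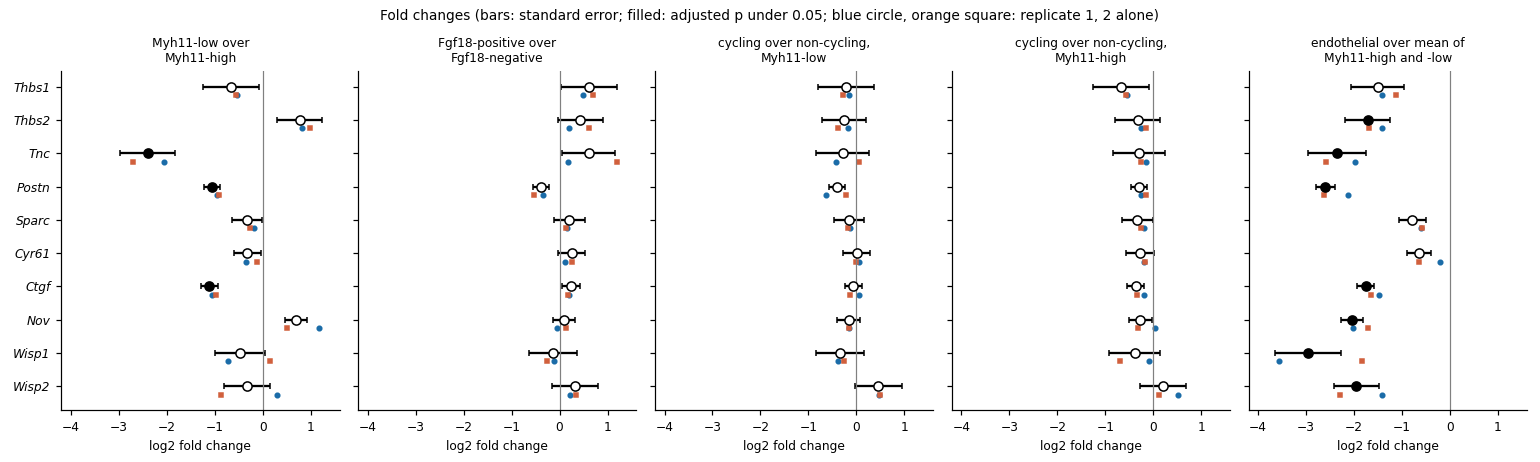
log2 fold changes of the 10 genes in 5 comparisons from edgeR, with standard errors as bars, filled points for an adjusted p under 0.05, and small symbols for each library alone (difference of log2 CPM without a test). 3 points are filled in the first panel and 7 in the last, and none in the other panels.

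The gradient over *Myh11* was then followed in finer steps of *Myh11* UMIs in non-cycling cells other than ECs. *Tnc* went from 46.1 CPM in cells with 0 *Myh11* UMIs to 339 CPM in cells with 20 or more in replicate 1, and from 21.4 to 160 CPM in replicate 2. *Ctgf* went from 855 to 2115 CPM and from 1040 to 2325 CPM between the same steps. *Postn* went from 39.9 to 121 CPM and from 46.4 to 112 CPM. These 3 genes were thus highest in the cells with most *Myh11* in both libraries. So was *Cyr61*, which was not called, at 546 and 758 CPM there and at 413 and 623 CPM in cells with 0 *Myh11* UMIs.

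In *Nov* the libraries parted along the gradient. It stood at 429 and 426 CPM in cells with 0 *Myh11* UMIs and at 298 and 223 CPM in cells with 2 to 4, and in cells with 20 or more it was at 187 CPM in replicate 1 and at 330 CPM in replicate 2. *Thbs2* went from 272 to 105 CPM in replicate 1 and from 190 to 102 CPM in replicate 2. Cells with more *Myh11* UMIs were also deeper, with a median of 19620 UMIs at 0 and 27687 at 20 or more in replicate 1, and the values are scaled to the total UMIs. Steps are a description with no test.

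**Figure D3:**
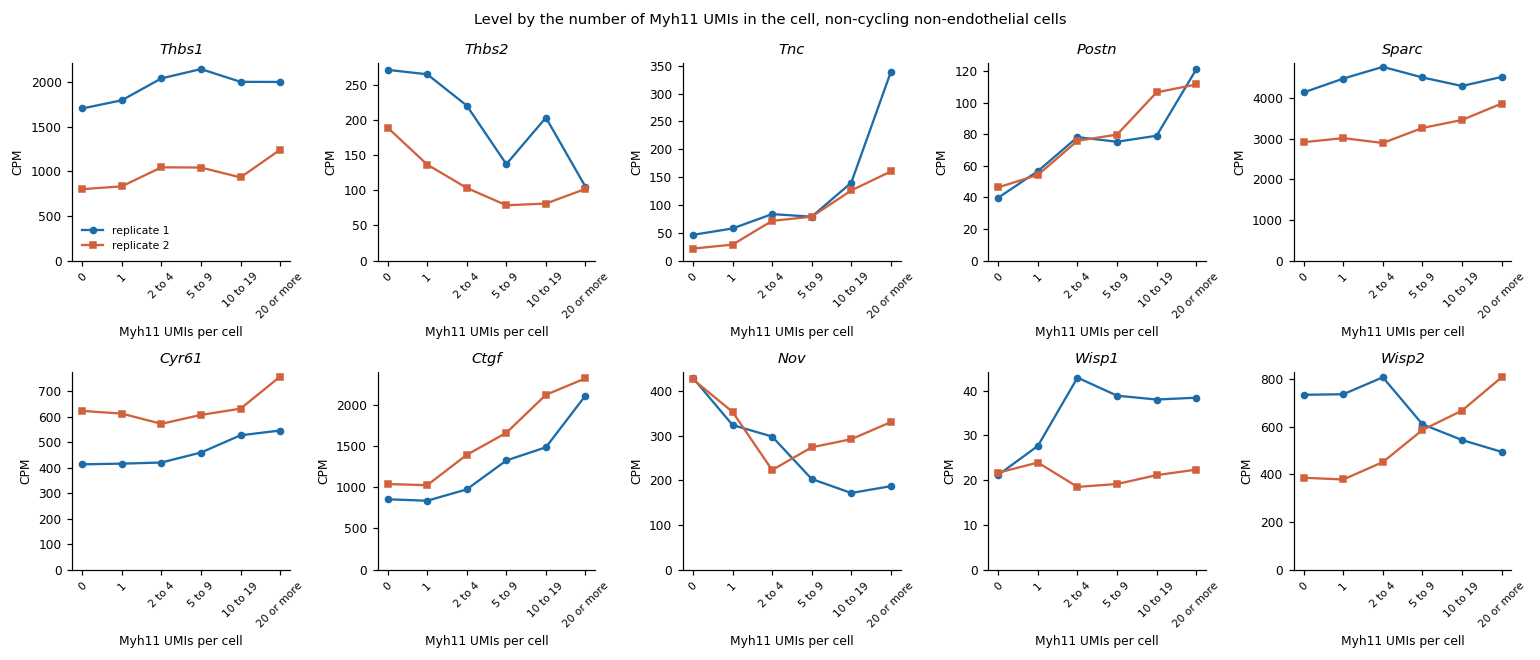
CPM of the 10 genes against the number of *Myh11* UMIs in the cell (6 steps, non-cycling cells other than ECs), with blue circles for replicate 1 and orange squares for replicate 2. *Tnc*, *Postn* and *Ctgf* climb in both libraries and *Cyr61* is highest at the last step, while *Wisp2* goes down in replicate 1 and up in replicate 2.

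The share of cells with at least 1 UMI showed how the members were spread over single cells. A *Tnc* UMI was found in 66.9% (exact 95% binomial interval 61.2 to 72.2%, counting error only) and 70.8% (66.7 to 74.6%) of Myh11-high cells, and in 35.4% (32.8 to 38.0%) and 15.2% (13.9 to 16.5%) of Myh11-low cells. After thinning every cell to 3000 UMIs the shares were 32.5% and 26.4% in Myh11-high cells and 10.9% and 4.67% in Myh11-low cells. The shares with *Tnc* thus differed at equal depth as well. At this depth a share largely follows the level, so that it cannot tell fewer cells with the transcript from less transcript per cell. In ECs, where free RNA from other cells is a source of UMIs, the unthinned share was 15.7% and 7.80% at a median depth of 14630 and 10250 UMIs.

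*Postn* had a UMI in 54.2% and 64.0% of Myh11-high cells and in 28.8% and 31.4% of Myh11-low cells, and thinned in 21.02% and 23.2% against 10.4% and 12.02%. *Ctgf* had a UMI in 98.0% and 99.8% of Myh11-high cells and in 89.4% and 94.3% of Myh11-low cells, and thinned in 91.9% and 96.9% against 71.8% and 83.02%. At equal depth its share was thus lower in Myh11-low cells by more points than that of *Postn*, but unthinned by fewer points. No order of the 2 genes is read from this. Free RNA alone would give a *Ctgf* UMI in 54.8% and 62.9% of Myh11-high cells before thinning. In Myh11-low cells it would give 44.2% and 53.2%. *Sparc* was found in every Myh11-high cell of both libraries and in 98.5% and 99.0% of Myh11-low cells, but free RNA alone would give 89.7% and 80.6%, and 80.0% and 71.0%, so that its share says little about single cells. *Wisp1* was the sparsest in Myh11-high cells, found in 45.5% and 26.9% of Myh11-high cells and in 26.4% and 21.1% of Myh11-low cells. Thinned, its shares were 10.1% and 5.87% against 6.32% and 5.855%, so that in replicate 2 the classes were alike at equal depth.

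*Nov* showed a different order by share and by level. Its mean share was 5.37 percentage points lower in Myh11-low cells (differences of 1.74 and -12.5 points in the 2 libraries) although its CPM was higher. After thinning the mean difference was 6.75 points, of 14 and -0.53 points. No order is read from the share of cells with *Nov*.

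Fgf18-positive and Fgf18-negative Myh11-low cells were compared to see whether the members differ within the cells low in *Myh11*. *Fgf18* encodes a growth factor of cartilage and lung. None of the 10 members passed in edgeR, and 0% of all genes did (0 of 13014, 190 at an unadjusted p under 0.05, and 5 genes by DESeq2). *Thbs1* was at 1979 and 1134 CPM in Fgf18-positive and at 1410.1 and 701 CPM in Fgf18-negative cells, *Tnc* at 50.2 and 39.3 CPM against 44.6 and 16.8 CPM, and *Postn* at 37.1 and 34.9 CPM against 47.6 and 50.7 CPM. *Thbs1* and *Tnc* stood higher and *Postn* lower in the Fgf18-positive cells of each library. The log2 fold changes of the other members were 0.43 (*Thbs2*), 0.20 (*Sparc*), 0.25 (*Cyr61*), 0.24 (*Ctgf*), 0.092 (*Nov*), -0.14 (*Wisp1*) and 0.33 (*Wisp2*).

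In the blocked fit 1 member was called in this comparison, *Thbs1* (log2 fold change 0.65, SE 0.09, adjusted p = 0.0387 from edgeR), beside 0.0538% of all genes (0.0461% as higher). The log2 fold changes of the 10 members without the block ran from -0.39 in *Postn* to 0.62 in *Thbs1*, with a median of 0.24 and adjusted p-values of 1 from edgeR. The Fgf18-positive cells were also the deeper ones, with a median of 21570 and 15770 UMIs against 17920 and 14130. The part of depth in these values was not tested.

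Cycling cells were compared with non-cycling cells in the Myh11-low and in the Myh11-high class to see whether the members move with the cell cycle. In Myh11-low cells edgeR called 6.15% of all genes and none of the 10 members. In Myh11-high cells it called 6.08% of all genes and again none of the members. All 5 proliferation genes that had been set aside as a check, among them *Plk1*, were higher in the cycling cells of both classes. The growth inhibitor *Wisp2* stood at 931 and 506 CPM in cycling and at 675 and 362 CPM in non-cycling Myh11-low cells, higher in the cycling cells of each library but short of the threshold (log2 fold change 0.46, SE 0.48, adjusted p = 0.818 from edgeR). *Postn* stood at 30.7 and 43.6 CPM in cycling and at 47.6 and 50.7 CPM in non-cycling Myh11-low cells (-0.41, SE 0.17, adjusted p = 0.276 from edgeR). The log2 fold changes of the other members in Myh11-low cells were -0.21 (*Thbs1*), -0.26 (*Thbs2*), -0.29 (*Tnc*), -0.16 (*Sparc*), 0.010 (*Cyr61*), -0.062 (*Ctgf*), -0.16 (*Nov*) and -0.34 (*Wisp1*). Cycling Myh11-low cells were deeper than non-cycling ones, with a median of 25560 and 19290 UMIs against 17920 and 14130. The part of depth in these values was not tested.

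Within the Myh11-high class 3 members were called in the blocked fit, beside 15.1% of all genes (5.66% as lower), and all 3 were lower in cycling cells. These were *Thbs1* (log2 fold change -0.67, adjusted p = 0.000343), *Ctgf* (-0.36, adjusted p = 0.0135) and *Sparc* (-0.33, adjusted p = 0.016), from edgeR. *Thbs1* was at 1399 and 692 CPM in cycling Myh11-high cells against 2056 and 1031 CPM in non-cycling ones, and *Sparc* at 3886 and 2898 CPM against 4470.4 and 3458 CPM. The cycling Myh11-high cells were also deeper, with a median of 31930 and 24470 UMIs against 23780 and 18410. Their *Myh11* stood lower, at 484 and 446 CPM against 647 and 632 CPM. The part of depth and of the *Myh11* level in these calls was not tested. The log2 fold changes of the members not called were, without the block, -0.33 (*Thbs2*), -0.30 (*Tnc*), -0.30 (*Postn*), -0.28 (*Cyr61*), -0.27 (*Nov*), -0.39 (*Wisp1*) and 0.21 (*Wisp2*). In the Myh11-low class the blocked fit called none of the members and 17.2% of all genes. The difference of the cycling effect between the classes was tested itself, and it passed for none of the members and for 0% of all genes (82 at an unadjusted p under 0.05, and 1 gene by DESeq2). It ran from -0.46 in *Thbs1* to 0.11 in *Postn*, with -0.31 in *Ctgf*, -0.29 in *Cyr61*, -0.25 in *Wisp2*, -0.17 in *Sparc*, -0.11 in *Nov*, -0.067 in *Thbs2*, -0.044 in *Wisp1* and -0.0091 in *Tnc*, on the log2 scale.

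ECs were compared with the average of Myh11-high and Myh11-low cells to see which members belong to the smooth muscle cells of the culture. ECs were not split by the cell cycle, whereas both other classes held non-cycling cells only. The 5 proliferation genes of the check summed to 313 and 329 CPM in ECs. They summed to 24.8 and 53.7 CPM in Myh11-high cells and to 45.5 and 37.9 CPM in Myh11-low cells. The part of the cell cycle in the EC values was not tested. All 10 members had log2 fold changes below 0 and 7 were called lower in ECs, where edgeR called 29.8% of all genes (13.6% as lower). The median was -1.86 over the members and -0.04 over all genes. The lowest value was that of *Wisp1* (-2.96, SE 0.69, adjusted p = 0.00967 from edgeR). It was at 38.5 and 20.5 CPM in Myh11-high cells and at 23.0 and 22.8 CPM in Myh11-low cells. In ECs it was at 2.04 and 5.71 CPM, on 4 and 10 UMIs. Within replicates 1 and 2 its log2 fold change was -3.58 and -1.83, and in replicate 2 *Postn* stood lower, at -2.63. *Postn* fell by 2.60 (SE 0.19, adjusted p = 9.72e-06 from edgeR), to 14.8 and 10.9 CPM in ECs.

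The other 5 called members were *Tnc* (-2.36, adjusted p = 0.0161), *Nov* (-2.05, adjusted p = 0.00016), *Wisp2* (-1.96, adjusted p = 0.0111), *Ctgf* (-1.76, adjusted p = 5.70e-05) and *Thbs2* (-1.72, adjusted p = 0.0188), from edgeR. *Thbs1* (-1.51, adjusted p = 0.0627), *Sparc* (-0.79, adjusted p = 0.0639) and *Cyr61* (-0.65, adjusted p = 0.0842) did not pass, and they did in the blocked fit (adjusted p = 2.46e-07, 8.08e-06 and 0.00109), which called 42.7% of all genes (21.4% as lower). *Cyr61* was at 386 and 393 CPM in ECs and *Sparc* at 2785 and 2096 CPM, so that both were well above the 16.7 and 28.9 CPM and the 110 and 92.9 CPM that free RNA alone would give. Free RNA was estimated at 4.69% and 5.76% of the UMIs in cells.

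Free RNA was also set against the members in single ECs. A *Wisp2* UMI was found in 34.3% and 18.4% of ECs, where free RNA alone would give 45.6% and 28.6%. Its share was thus not above the estimate for free RNA. Its level in all ECs was above that estimate, at 230 and 99.4 CPM. A small group of ECs with the highest counts held 83.4% and 93.1% of these UMIs. In a comparison added after seeing the data, ECs with a UMI of *Lum* or *Pdgfra* or with 2 or more of *Myh11* were left out, and 75 and 117 ECs remained. In these cells *Thbs2* was at 1.85 and 5.70 CPM and *Wisp2* at 21.2 and 12.2 CPM, at or under what free RNA alone would give (9.83 and 7.08 CPM, and 37.6 and 29.0 CPM). *Postn* had 0 UMIs in replicate 1, which allows up to 2.77 CPM, and was at 4.07 CPM in replicate 2. *Wisp1* had 1 UMI in replicate 1 (0.924 CPM) and 0 in replicate 2, where free RNA alone would give 0.986 and 0.828 CPM. So few UMIs do not set its level apart from free RNA.

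*Sparc*, *Cyr61*, *Ctgf* and *Thbs1* stood highest above free RNA in the same cells. *Cyr61* was at 385 and 296 CPM, *Sparc* at 2177 and 1780 CPM, *Ctgf* at 314 and 252 CPM and *Thbs1* at 219 and 279 CPM, each several times the level that free RNA alone would give. *Tnc* was also above it, at 9.24 and 5.70 CPM against 3.51 and 2.31 CPM, on 10 and 7 UMIs. *Nov* was below it in replicate 1 (9.24 against 12.9 CPM) and above it in replicate 2 (35.0 CPM). Against these ECs all 10 members were called lower, beside 4794 of 12977 genes (2522 as lower). The cells were left out by transcripts of the comparison classes, so that a fall of genes abundant there was in part built in. *Acta2*, for one, went from 1700 to 554 CPM in replicate 1 and from 1131 to 414 CPM in replicate 2. These calls are thus no separate support for the comparison with all ECs. The median log2 fold change of the members was -3.77. *Thbs2* moved most, from -1.72 to -5.57. Whether the cells left out were mixed droplets was not tested.

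**Figure D4:**
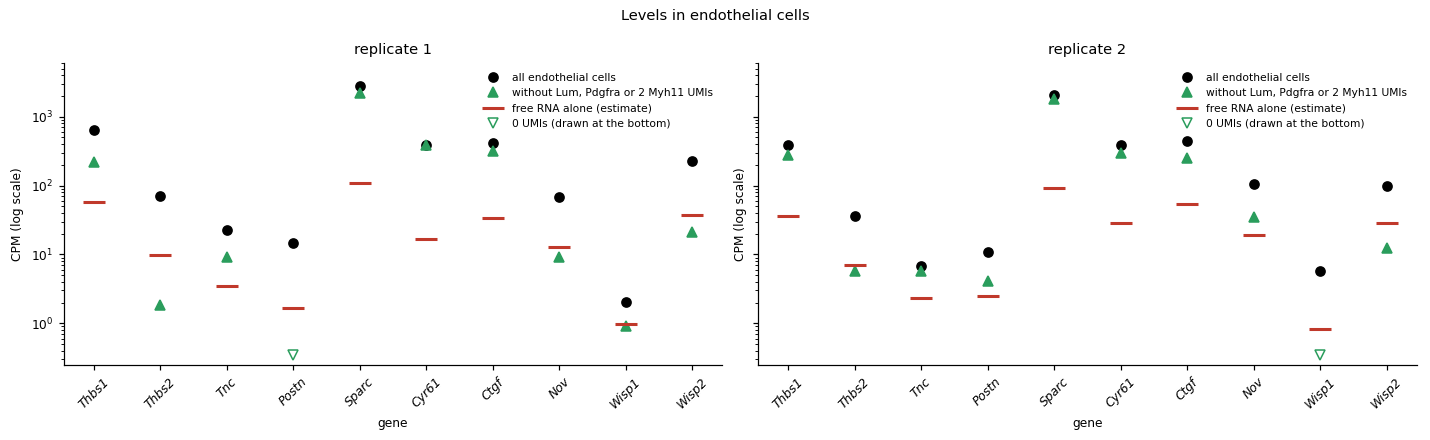
CPM on a log axis of the 10 genes in ECs of replicate 1 (left) and replicate 2 (right), for all ECs (black circles), for ECs without UMIs of *Lum* and *Pdgfra* and with fewer than 2 of *Myh11* (green triangles), and as free RNA alone would give (red bars). Open triangles at the bottom stand for 0 UMIs. *Sparc*, *Cyr61*, *Ctgf*, *Thbs1* and, on few UMIs, *Tnc* stay above the red bars in both libraries. *Thbs2*, *Wisp2* and, on 1 and 0 UMIs, *Wisp1* drop below them.

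Other genes of the matricellular system were counted on lists that were chosen by function. Of 15 other matricellular genes 9 were tested. In Myh11-low cells 1 was higher and none lower, beside 1.8% and 3.87% of all genes (3 and 1 in the blocked fit, beside 11.8% and 12.9%). This was *Tgfbi*, a periostin paralogue, at 7.74 and 12.6 CPM against 2.26 and 1.79 CPM in Myh11-high cells (log2 fold change 2.23, SE 0.44, adjusted p = 0.0183 from edgeR). Osteopontin (*Spp1*) was at 475 and 165 CPM in Myh11-high and at 127 and 82.5 CPM in Myh11-low cells and did not pass. The median of the 9 genes was 0.38, where that of the 10 members was -0.40.

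Of the 14 receptors of these proteins, 2 were higher and 4 lower in Myh11-low cells, beside 1.8% and 3.87% of all genes (4 and 7 in the blocked fit, beside 11.8% and 12.9%). *Itga8*, the integrin α8 chain that binds tenascin C and osteopontin, was at 224 and 399 CPM in Myh11-high cells and at 24.3 and 26.0 CPM in Myh11-low cells (-3.73, SE 0.43, adjusted p = 0.0014 from edgeR). *Itgb3*, the β3 chain of the αvβ3 integrin, was at 18.0 and 18.8 CPM against 3.29 and 3.78 CPM (-2.48, adjusted p = 0.000519 from edgeR). The thrombospondin receptor *Cd47* was higher in Myh11-low cells, at 141 and 140 CPM against 75.2 and 88.8 CPM (0.67, SE 0.11, adjusted p = 0.00962 from edgeR). *Cd36*, a scavenger receptor that also binds thrombospondin, had 0 UMIs in Myh11-high cells of both libraries and 114 and 146 UMIs in Myh11-low cells, at least 11-fold and 10.6-fold higher against a floor of 3 counts per library. *Cd36* is also a gene of macrophages, whose summed markers stood higher in the same class of each library. Of the receptors *Cd36* alone passed in cycling over non-cycling Myh11-low cells, where it was lower, with 11 and 1 UMIs in the cycling cells.

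Of 20 YAP and TEAD targets other than *Cyr61* and *Ctgf*, 2 were higher and 4 lower in Myh11-low cells, beside 1.8% and 3.87% of all genes. In the blocked fit 5 were higher and 8 lower, beside 11.8% and 12.9%. *Ankrd1*, a muscle ankyrin repeat gene, was at 443 and 249 CPM in Myh11-high cells and at 88.3 and 55.0 CPM in Myh11-low cells (-2.38, SE 0.43, adjusted p = 0.012 from edgeR). *Fjx1* was lower (-2.98, adjusted p = 0.0243), whereas *Igfbp3* (1.81, adjusted p = 0.0454) and *Rbms3* (0.55, adjusted p = 0.0291) were higher, from edgeR. The median of this list was 0.05, beside 0.02 over all genes.

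Of 14 genes of TGF-β signalling 2 were lower and none higher in Myh11-low cells, beside 3.87% and 1.8% of all genes. In the blocked fit 4 were lower and 2 higher, beside 12.9% and 11.8%. The ligand *Tgfb2* was at 314 and 455 CPM in Myh11-high cells and at 80.8 and 114 CPM in Myh11-low cells (-2.09, SE 0.43, adjusted p = 0.0225 from edgeR), and *Ltbp1*, which stores latent TGF-β in the matrix, fell by 0.72 (adjusted p = 0.0157 from edgeR). None of 10 immediate early genes passed, and 4 were higher in the blocked fit, beside 11.8% of all genes. Their sum was 2117 and 1062 CPM in Myh11-high and 2818 and 1887 CPM in Myh11-low cells. *Ctgf* was lower in the class in which this sum was higher in each library, and the part of the immediate early response in the level of *Cyr61* was not tested.

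Across single cells of a class, some members varied together. *Cyr61* and *Ctgf* correlated at a Pearson r of 0.44 and 0.45 over the 1374 and 3086 Myh11-low cells and at 0.47 and 0.40 over the 299 and 531 Myh11-high cells. *Thbs1* and *Ctgf* correlated at 0.53 and 0.39 in Myh11-low cells but at 0.06 and 0.10 in Myh11-high cells. *Sparc* and *Wisp2* correlated at 0.40 and 0.49 in Myh11-high cells and at 0.22 and 0.31 in Myh11-low cells. These are descriptions over cells of 1 library, which share depth and free RNA and are not replicates, and the differences between classes were not tested.

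**Figure D5:**
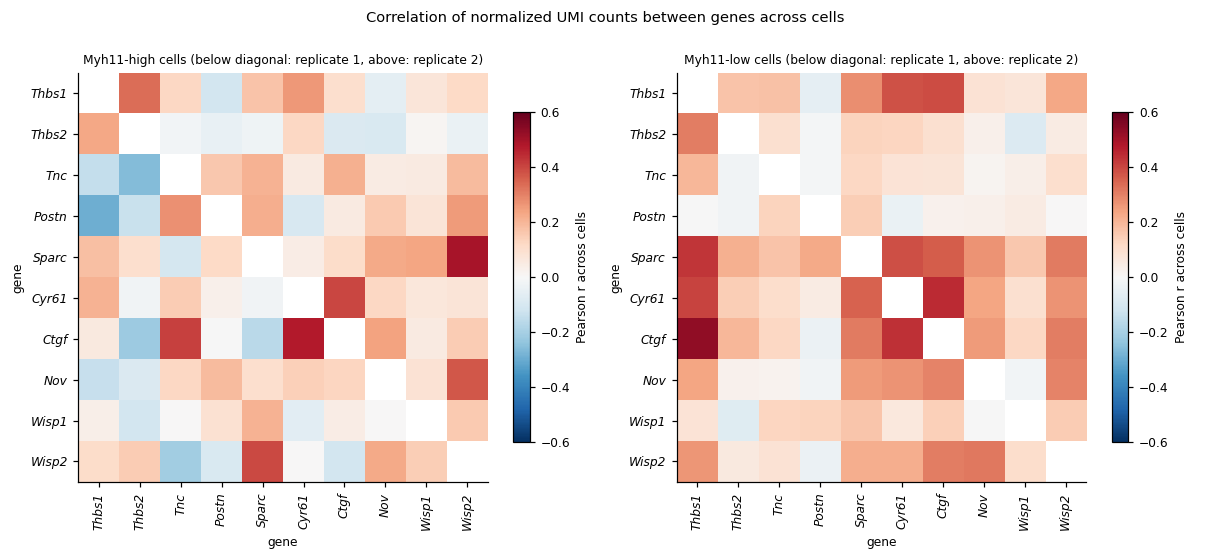
Pearson r (colour, from -0.6 in blue to 0.6 in red) between the normalized UMI counts of each pair of the 10 genes across single Myh11-high cells (left) and Myh11-low cells (right), with replicate 1 below and replicate 2 above the diagonal. The pair *Cyr61* and *Ctgf* is red on both sides of both panels, and *Thbs1* and *Ctgf* are strongly red in the right panel only.

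The pattern over classes and libraries was also compared between genes, by the Pearson r of log2 CPM over all 14 sums and as a description. *Thbs1* and *Sparc* were most alike among the members (0.97), and *Sparc* and *Cyr61* most unlike (-0.21). Of all genes with a mean of at least 20 CPM, the gene most like *Tnc* was *Jph2* (0.98), a gene of the junctions between the sarcoplasmic reticulum and the cell membrane. The 2 genes most like *Ctgf* were *Glipr1* and *Ift43* (both 0.98), and the gene most like *Cyr61* was *Anxa5*, annexin A5 (0.93). Over the 12 sums without ECs, a choice made after seeing the data, several of these changed. *Postn* and *Nov* went from 0.42 to -0.83 and became the most unlike pair, *Ctgf* was most like *Mllt3* and *Tgfb2* (both 0.97), and *Cyr61* most like *Edn1*, endothelin 1 (0.97). *Thbs1* and *Sparc* (0.96) and *Tnc* and *Jph2* (0.99) stayed the most alike. The sums share library and culture, and the genes were picked as the highest of all.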

How the data were processed

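The authors aligned the 10x 3′ v3 libraries with Cell Ranger and deposited raw UMI counts, whole numbers for every gene and barcode, empty droplets included. The submitters' notes name version 3.0.2 and mm10, and the matrix header of replicate 2 names 3.1.0. Identifiers were matched to GENCODE M21 of GRCm38 (30934 of 31053). The quality filters are those of the study, and doublets were kept. UMIs were summed per library and class and tested in 6 comparisons with edgeR 4.0.16, by its quasi-likelihood F test after TMM scaling and filterByExpr, at a Benjamini-Hochberg adjusted p of 0.05, with no p-value made from cells. An exact permutation test of 2 against 2 sums in both directions, which leaves out the pairing by library, gives a p of at least 0.33. Sums of the same library were paired by culture, and their deviations from the class means correlated at 0.302 to 0.826 over 21 pairs of classes (median 0.6), so that values with the library number as a block stand beside the members and list counts whose calls they change. Nothing says that the replicates came from separate animals, so that p-values say nothing of a spread between animals. Without the block they rest on the spread between sums of a class, with all sums treated as independent. With the block they rest on the spread left after the difference between the libraries is removed. Each standard error is the size of the log2 change divided by the root of F. A single library's fold change is a difference of log2 CPM (pseudocount 0.5). Free RNA was taken from barcodes with 1 to 100 UMIs and scaled by 4 endothelial genes in other cells. On simulated counts for Myh11-low over Myh11-high (12750 genes) 37% of genes changed by 1 on the log2 scale and 99% of those changed by 2 were recovered. The simulated sums were independent of each other, without the correlation within a library, and only genes above a minimum level were changed. These rates are thus not those of the paired sums here.

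All 10 members are named in every comparison, and from each list up to 2 called genes per direction, those that changed most. Of the lists not counted elsewhere, 0 of 4 modulated genes passed in Myh11-low cells (3 were higher in the blocked fit), and of the macrophage, Schwann and adventitial lists *Ly6a* alone was higher (2, 1 and 2 genes in the blocked fit). These counts stand beside 1.8% of all genes as higher in Myh11-low cells, and 11.8% in the blocked fit. Of the cycling and endothelial genes *Ccnb1* was higher there (log2 fold change 0.98) and *Esam* lower (-4.03). Members, classes and lists were chosen with earlier results of these data known. Alternatives were DESeq2 1.42.0, another scaling, no filter, other class limits, deeper cells only, the deepest cells left out, free RNA subtracted and each library alone.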

Additional observations from a re-analysis of the deposited data

How the results depend on the processing

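The members called in Myh11-low cells numbered 3, all lower, and 7 when the library number was a block (2 higher and 5 lower, 3215 genes) and 1 with cycling and Fgf18-positive cells kept in (125 genes), where the main count of genes was 737 and that of DESeq2 1318. For Fgf18-positive cells the count of genes was 7 with the block, 5 with DESeq2, and 1 each without a filter and with free RNA subtracted, and that of members 1 with the block. The block gave 2244 genes for cycling Myh11-low cells, 1966 genes and 3 members for cycling Myh11-high cells, and 1 gene for the difference between them, as did DESeq2. Values near 0 changed sign. *Cyr61* in cycling Myh11-low cells was at -0.0258 with DESeq2, -0.0268 with RLE factors, -0.0273 with 2 cycling genes, -0.00386 without a filter and -0.0011 in cells of at least 10000 UMIs. For the difference of the cycling effect *Tnc* was at 0.0272 with DESeq2, 0.0244 with RLE factors, 0.0911 with *Myh11* per 10000 UMIs, 0.00433 in deep cells and 0.0131 with free RNA subtracted, and *Wisp1* at 0.000297 with DESeq2, 0.0142 in deep cells and 0.0645 with 2 cycling genes. Among the values of a single library, those that changed sign were *Wisp1* (-0.73 and 0.15) and *Wisp2* (0.29 and -0.86) in Myh11-low cells, *Nov* (-0.0534 and 0.13) in Fgf18-positive cells, *Tnc* (-0.42 and 0.0612), *Cyr61* (0.0454 and -0.00399) and *Ctgf* (0.0442 and -0.14) in cycling Myh11-low cells, *Nov* (0.0367 and -0.32) in cycling Myh11-high cells, and in the difference *Thbs2* (-0.0941 and 0.23), *Tnc* (0.27 and -0.32), *Nov* (0.19 and -0.16), *Wisp1* (0.31 and -0.43) and *Wisp2* (0.0481 and -0.37), for replicates 1 and 2. The share of cells with *Nov* reversed to 6.75 points when thinned and was 1.74 points in replicate 1 and -12.5 in replicate 2. The cause of these changes was not tested. No called member changed direction under any alternative with a test, and the block changed no other call of a member than those given beside the results. A missed threshold with 2 libraries does not show that levels were equal.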

Other observations

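Several of the listed receptors, other matricellular genes and signals differed in level between ECs and the smooth muscle cells. The ECs included cycling cells and the classes compared with them did not, and the part of this was not tested. Of the 14 receptors 5 were higher and 5 lower in ECs than in the average of Myh11-high and Myh11-low cells, where 29.8% of all genes were called and 13.6% were lower. When the library number was a block 6 were higher and 7 lower, beside 42.7% of all genes (21.4% as lower). The same shares apply to the other counts in ECs given below. *Itga6*, the laminin-binding integrin α6 chain, was at 99.9 and 67.4 CPM in ECs and at 5.86 and 13.8 CPM in Myh11-high cells (log2 fold change 3.65, standard error (SE) 0.72, adjusted p = 0.00398 from edgeR). *Stab1*, a scavenger receptor that takes up SPARC, was at 167 and 167 CPM in ECs and had 2 and 0 UMIs in Myh11-high cells. The receptors that changed most in the other direction were *Itga8* (-2.82, adjusted p = 0.00107) and *Itgb5* (-1.87, adjusted p = 0.000137), from edgeR. Of the 9 other matricellular genes tested 1 was higher and 3 were lower (1 and 7 with the block). *Sparcl1*, a SPARC paralogue, was at 107 and 53.1 CPM in ECs against 3.86 and 3.57 CPM in Myh11-high cells (3.93, SE 0.26, adjusted p = 5.35e-06 from edgeR). Osteopontin (*Spp1*, -3.06, adjusted p = 0.00691) and tenascin X (*Tnxb*, -1.99, adjusted p = 0.0428) were lower, from edgeR. Of the 20 YAP and TEAD targets 6 were higher, led by *Nt5e* (4.35) and *Gadd45a* (3.15), and 7 lower, led by *Tgfb2* and *Ankrd1* (-2.38), with 6 and 10 under the block. The TGF-β ligands were divided, with *Tgfb1* higher in ECs (2.79, SE 0.10, adjusted p = 1.88e-07) and *Tgfb2* (-2.50, adjusted p = 0.00197) and *Tgfb3* (-2.22, adjusted p = 0.0281) lower, from edgeR. All 5 endothelial genes set aside as a check were higher in ECs.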
